A study of Mus musculus with 15 samples.

Results

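The genes described here are the mitochondrial carriers of the Slc25 family, taken as the protein-coding genes of the GENCODE annotation on mm10 whose symbol is Slc25a followed by a number. There were 47 such genes among 21755 protein-coding genes on chromosomes 1 to 19 and X. Carriers of this family sit mostly in the inner mitochondrial membrane, which small charged molecules cannot cross unaided. Each carrier exchanges or moves particular molecules, such as adenine nucleotides, phosphate, citrate, amino acids, acylcarnitines or cofactors. In the liver they connect the mitochondrial matrix with fatty acid synthesis, gluconeogenesis and the urea cycle in the cytosol.

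PAT-ChIP-seq, chromatin immunoprecipitation from tissue fixed in formalin and embedded in paraffin followed by sequencing, was applied to the livers of 15 female C57BL/6J mice (C57BL/6 in the labels) with an antibody against H3K4me3, a histone methylation typical of promoters. Each of 5 diets had 3 mice with 1 library per mouse. SD was the standard diet, CR a caloric restriction to 70% of normal intake and HF a high-fat diet without restriction, while the maize of the standard diet was replaced by seed powder of yellow corn free of anthocyanins in YD and of purple corn rich in them in RD (called Red diet in the labels). YD and RD are called the corn diets below, although the standard diet also holds maize. All mice were of 1 strain, the diets began at 3 months of age and lasted 10 months, and the age stated with the samples is 12 months.

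An island is a region in which SICER2 found more reads than expected, built from windows of 200 bp, so every width is a multiple of 200 bp. A gene was called marked in a library when an island came within 1 kb of any of its transcription start sites (TSSs). Its width was that of the highest-scoring such island, or 0 bp where there was none. Since the island scores are not scaled between libraries, each gene was also given a score place, its percentile among all protein-coding genes of that library when ordered by island score, with 100 the highest. Genes without an island shared 1 place, which lay between 22.7 and 41.2 depending on the library. By construction, the median place of marked genes is lower in a library with more of them. It was 72.7 to 76.2 in HF, 75.9 to 82.3 in CR and 78.4 to 83.6 in the standard diet. In RD it was 82.6 to 86.1 and in YD 86.7 to 91.3.

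The lists held 7825 to 33752 islands, and the reads recovered from the score steps numbered 5589269 to 15449854 per library. The lists of CR mouse 3 and RD mouse 2 were the longest, while YD mouse 3 had the fewest marked genes. The deepest library was YD mouse 1, which had the shortest list. RD mouse 2 was the next deepest with 13978169 reads, and CR mouse 3 had 8716790. Of 8 hepatocyte marker genes, 4 to 8 were marked per library (median 7), and none of 6 genes of heart, muscle, neurons or pancreatic islets was marked in any library. Hepatocyte markers averaged 8.0 in HF, 7.0 in SD, 6.67 in YD and 6.33 in CR and in RD. Markers of endothelial, Kupffer and stellate cells were likewise marked most often in HF. The mean number of 5 sinusoidal endothelial markers marked was 3.67 for HF, 1.67 for SD, 1.33 for CR, 0.667 for RD and 0 for YD, with a range of 0 to 5 over all libraries. For 6 Kupffer cell markers the mean was 1.67 in HF and 0.667 or less in the other diets (range 0 to 4), and Vsig4 and Csf1r were marked in no library. For 5 stellate cell markers it was 2.0 in HF and 0.667 or less elsewhere (range 0 to 4). Of 4 cholangiocyte markers at most 2 were marked, with Krt19 and Epcam in no library. Their mean was 1.0 in CR, 0.667 in HF, 0.333 in SD and 0 in YD and RD.

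Slc25 genes were marked more often than protein-coding genes as a whole in each of the 15 libraries. The number marked was 30, 33 and 27 in the SD mice, 23, 35 and 36 in CR, 40, 37 and 38 in HF, 20, 25 and 13 in YD and 24, 25 and 22 in RD. The diet means were 38.3 ± 1.53 (standard deviation, n = 3) for HF, 31.3 ± 7.23 for CR, 30 ± 3.0 for the standard diet, 23.7 ± 1.53 for RD and 19.3 ± 6.03 for YD. No YD or RD mouse reached the lowest standard diet or HF mouse, whereas CR overlapped with the standard diet, RD and YD. As shares, 81.6% of the Slc25 genes were marked in HF against 51.2% of all protein-coding genes, and 41.1% against 22.8% in YD. The corresponding shares were 63.8% against 39.6% in the standard diet, 66.7% against 43.4% in CR and 50.4% against 31.2% in RD. The order of the diets was thus that of all genes, and no test was made over the family as a whole. The livers were not separated by cell type, so fewer cells of a type and less of the mark per cell cannot be told apart. How well the immunoprecipitation worked in each library was not tested either.

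**Figure D1:**
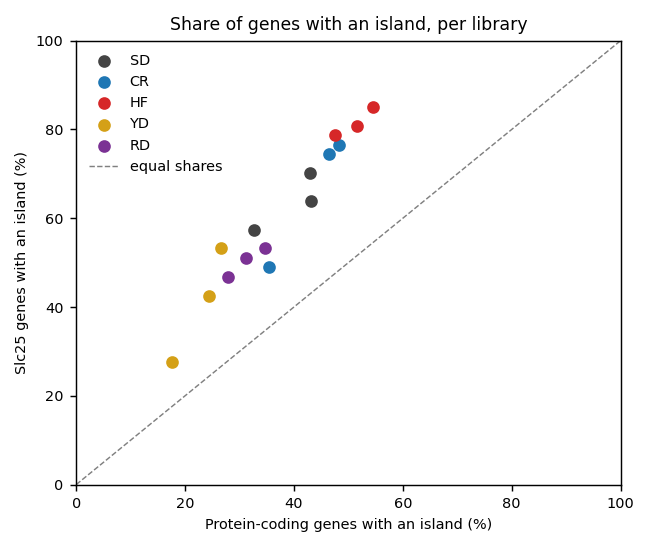
Share of Slc25 genes with an island (vertical axis, %) against the share of all protein-coding genes with an island (horizontal axis, %), 1 point per library, coloured by diet. All 15 points lie above the dashed line of equal shares, and YD mouse 3 is the lowest with 27.7% of Slc25 genes.

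Across the 15 libraries, 6 of the 47 genes (12.8%) were marked in every one and 6 (12.8%) in none, compared with 9.46% and 40.04% of all protein-coding genes. The genes marked everywhere were Slc25a3, Slc25a11, Slc25a20, Slc25a25, Slc25a42 and Slc25a44. Those never marked were Slc25a18, Slc25a31, Slc25a37, Slc25a41, Slc25a43 and Slc25a54. A further 2 genes were marked in 1 or 2 libraries and 33 (70.2%) in 3 to 14, compared with 42.02% of all genes in the latter class. The variable class therefore held most of the family, and 39 of 47 genes (82.98%) had an island in at least 3 libraries and entered the tests, against 51.5% of all genes.

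Most islands of the family lay at the start of the gene and reached further into it than before it. Of 428 islands taken over all genes and libraries, 288 (67.3%) held the principal TSS. These reached a median of 649 bp before the TSS and 1366 bp after it, and 223 of the 288 reached further after it than before. The median width of the marked Slc25 genes was 1400 to 2800 bp per library, and that of all marked genes was 1200 to 2600 bp.

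**Figure D2:**
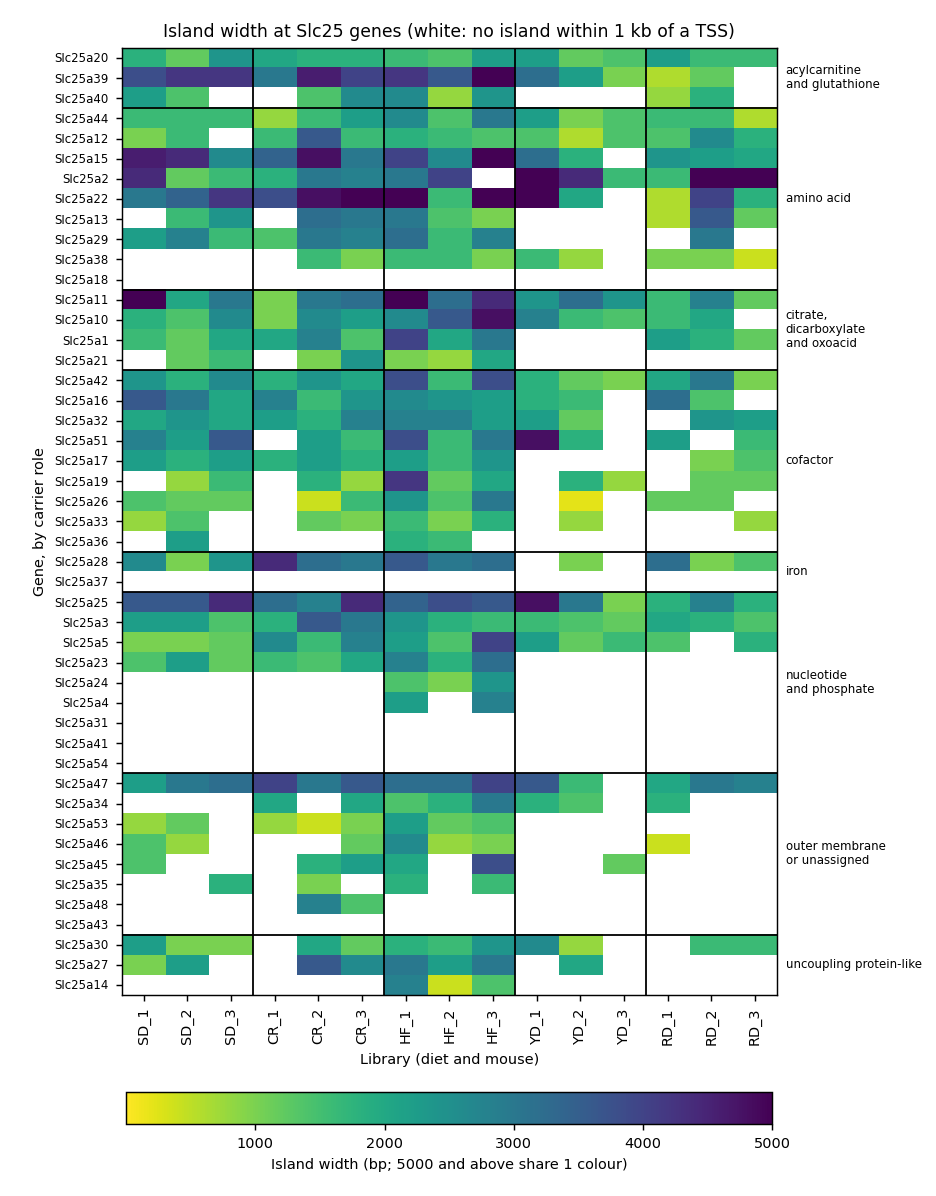
Island width (colour, bp, white where no island was called) for the 47 Slc25 genes (rows, grouped by carrier role) in the 15 libraries (columns, grouped by diet). The 6 genes never marked are white throughout, and the white cells are most frequent in the YD columns.

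The promoters of the family held more CpG dinucleotides at the median than promoters as a whole, with a wide range of 1 to 47. RefSeq promoters (GRCm38.p6, from 250 bases before to 50 after the start) were found for 36 of the 47 genes, with a median of 17.5 CpG dinucleotides against 7 over 32619 promoters. The 36 were 1 per gene, nearest the principal TSS, while the 32619 were not limited to 1 per gene or to protein-coding genes. The sets are thus unlike, also for the shares of short sequences below. The median was 24 in the 16 genes marked in 12 to 15 libraries, 17 in the 14 genes marked in 3 to 11 libraries and 14.5 in the 6 genes marked in 0 to 2. Spearman's rho between the CpG count and the number of libraries marked was 0.25 across the 36 genes and 0.54 across 16450 protein-coding genes. The promoter nearest the principal TSS was taken for the 36 genes but the first listed for each of the 16450, so these coefficients are not directly comparable. These values describe genes that share the same libraries and are not independent replicates. The GC box GGGCGG, on either strand, occurred in 30 of the 36 promoters (83.3%) and in 35.9% of all promoters of this length. CCAAT, on either strand, occurred in 18 of the 36 against 37.6% of all promoters. The letters GCGCATG, searched for on both strands as part of the NRF1 motif, occurred in 2 of the 36 (5.56%) against 3.92%, AAGGTCA, a nuclear receptor motif, in 1 (2.78%) against 4.71%, and TATAAA in 1 (2.78%) against 13.7%. GGGCGG and GCGCATG each contain a CpG and so overlap with the CpG count.

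The 250 bases before the start are shown for 7 genes on which the results turn, 5′ to 3′ on the strand of the gene, with CpG dinucleotides in capitals. They are Slc25a23 (chr17:57059864-57060113, minus strand) and Slc25a1 (chr16:17928220-17928469, minus strand), which had no island in YD, Slc25a14 (chrX:48623328-48623577, plus strand) and Slc25a24 (chr3:109122899-109123148, plus strand), which had islands only in HF, and Slc25a38 (chr9:120110132-120110381, plus strand), which had none in the standard diet. Slc25a34 (chr4:141623835-141624084, minus strand) and Slc25a31 (chr3:40708621-40708870, plus strand) are shown because they go against the general relation with CpG count.
Slc25a23: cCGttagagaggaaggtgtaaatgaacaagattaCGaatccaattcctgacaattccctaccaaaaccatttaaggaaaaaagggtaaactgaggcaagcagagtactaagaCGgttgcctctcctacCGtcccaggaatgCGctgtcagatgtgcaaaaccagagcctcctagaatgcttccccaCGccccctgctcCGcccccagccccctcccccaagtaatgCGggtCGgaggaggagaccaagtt
Slc25a1: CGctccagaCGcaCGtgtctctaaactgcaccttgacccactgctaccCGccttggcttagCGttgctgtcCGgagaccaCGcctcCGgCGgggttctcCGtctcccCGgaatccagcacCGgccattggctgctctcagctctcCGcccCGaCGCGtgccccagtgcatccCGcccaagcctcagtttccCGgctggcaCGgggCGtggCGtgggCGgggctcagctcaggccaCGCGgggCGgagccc
Slc25a14: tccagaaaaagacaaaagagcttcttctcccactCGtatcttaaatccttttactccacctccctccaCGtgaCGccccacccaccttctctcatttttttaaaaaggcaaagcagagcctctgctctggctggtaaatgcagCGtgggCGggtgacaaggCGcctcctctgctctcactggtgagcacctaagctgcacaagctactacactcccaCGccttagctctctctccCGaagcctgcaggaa
Slc25a24: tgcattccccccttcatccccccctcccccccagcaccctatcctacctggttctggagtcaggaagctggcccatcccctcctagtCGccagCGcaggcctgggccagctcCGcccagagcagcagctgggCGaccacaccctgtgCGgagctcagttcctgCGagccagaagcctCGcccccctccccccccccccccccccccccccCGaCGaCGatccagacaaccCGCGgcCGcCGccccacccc
Slc25a38: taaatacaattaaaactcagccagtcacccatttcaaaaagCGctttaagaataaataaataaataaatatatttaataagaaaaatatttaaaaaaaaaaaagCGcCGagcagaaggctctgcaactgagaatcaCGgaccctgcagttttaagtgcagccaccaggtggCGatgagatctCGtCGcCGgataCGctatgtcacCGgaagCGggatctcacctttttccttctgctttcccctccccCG
Slc25a34: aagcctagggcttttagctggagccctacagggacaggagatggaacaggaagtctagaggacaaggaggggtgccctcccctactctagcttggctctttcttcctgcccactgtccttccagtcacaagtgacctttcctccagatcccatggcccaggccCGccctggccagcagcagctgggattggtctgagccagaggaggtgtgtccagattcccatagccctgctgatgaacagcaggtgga
Slc25a31: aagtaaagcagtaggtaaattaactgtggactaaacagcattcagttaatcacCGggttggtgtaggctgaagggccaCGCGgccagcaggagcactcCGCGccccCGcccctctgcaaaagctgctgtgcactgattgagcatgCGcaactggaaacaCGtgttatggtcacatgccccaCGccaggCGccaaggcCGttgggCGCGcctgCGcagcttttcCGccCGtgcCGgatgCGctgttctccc
Slc25a34 held a single CpG in these bases and was marked in 8 libraries, while Slc25a31 held 18 and was marked in none. Slc25a1 held 25 and Slc25a23 held 9, and both lacked an island in the 3 YD mice. The CpG count of the printed bases was 8 for Slc25a14, 14 for Slc25a24 and 12 for Slc25a38, so the HF-only genes lay between these extremes.

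**Figure D3:**
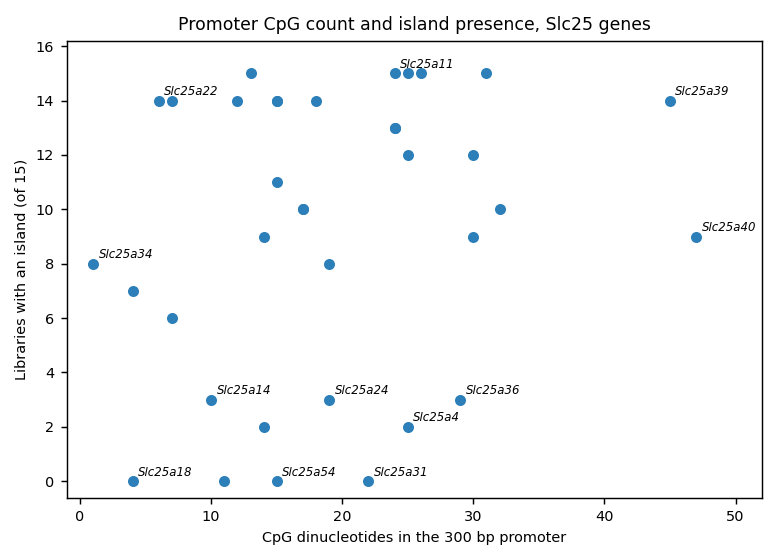
Number of libraries with an island (vertical axis, of 15) against the number of CpG dinucleotides in the 300 bp promoter (horizontal axis) for the 36 Slc25 genes with a RefSeq promoter. Slc25a34 stands at 1 CpG and 8 libraries, and Slc25a31 at 22 CpG and 0 libraries. Slc25a53 stands at 19 CpG and 8 libraries, although its islands lay at an upstream group of TSSs and never at this promoter.

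Among the carriers of citrate, dicarboxylates and oxoacids, 11 of 12 gene and mouse combinations were marked in the standard diet, 12 in HF, 11 in CR, 8 in RD and 6 in YD. Slc25a11, the oxoglutarate carrier of the malate-aspartate shuttle, had the highest median score place of the family (95.7) and an island in each mouse. Its width was 9400, 2000 and 3000 bp in the standard diet, 1000, 3000 and 3200 bp in CR, 5400, 3200 and 4400 bp in HF, 2400, 3200 and 2400 bp in YD and 1600, 2800 and 1200 bp in RD. The groups overlapped, and the island also covered the start of Rnf167 in all 15 libraries, so it cannot be assigned to 1 of the 2 genes. Slc25a10, the dicarboxylate carrier, was marked in 14 libraries with 1000 to 4800 bp, and RD mouse 3 alone had none. Slc25a21, the oxoadipate carrier, was marked in 2 standard diet, 2 CR and 3 HF mice, with 800 to 2400 bp, and in no YD or RD mouse.

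Slc25a1, the citrate carrier that exports citrate for fatty acid synthesis, was the only gene of the family called between the corn diets. Its island measured 1600, 1200 and 2000 bp in the standard diet, 2000, 2800 and 1400 bp in CR, 4000, 2000 and 3000 bp in HF and 2200, 1800 and 1200 bp in RD, and no island was called in any of the 3 YD mice. On the log2(width + 200 bp) scale, the difference from YD to RD was 3.24 ± 0.50 (SE, limma, Benjamini-Hochberg adjusted p = 0.00484). Of the 11200 genes tested, 0.991% were called wider in RD than in YD and 0.0179% narrower. In YD the island was narrower than in the standard diet by a log2 value of -3.15 ± 0.50 (limma, Benjamini-Hochberg adjusted p = 0.00335). The score place of this gene was 77.2, 87.9 and 80.5 in RD and 74.0 to 88.0 in the standard diet, and 36.7 to 41.2, the place of genes without an island, in YD. Although the YD places lay below those of the other 4 diets, the difference in place between RD and YD, 43.2 points, missed the threshold (limma, Benjamini-Hochberg adjusted p = 0.0847).

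**Figure D4:**
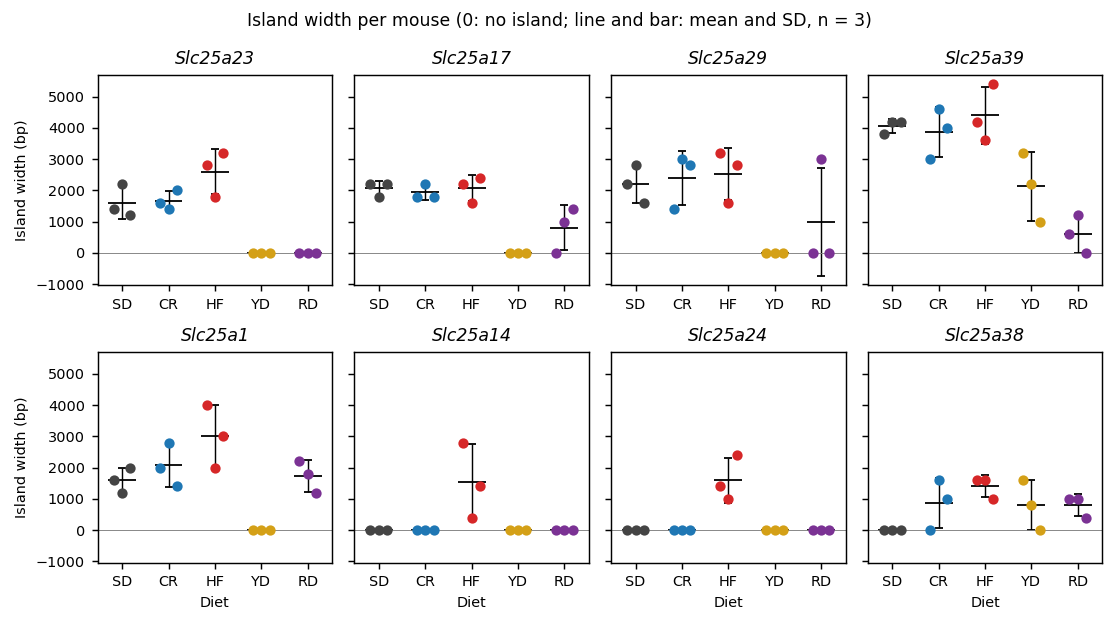
Island width (bp) per mouse for 8 Slc25 genes by diet, with 1 point per mouse (0 where no island was called), the mean as a line and the standard deviation as a bar (n = 3). Slc25a23 is at 0 bp in all YD and RD mice, Slc25a1 in the YD mice only, Slc25a14 and Slc25a24 in all mice but those of HF, and Slc25a38 in all standard diet mice.

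Amino acid carriers were marked in 19 of 27 combinations in the standard diet, 23 in HF, 22 in CR, 22 in RD and 15 in YD. Slc25a15, the ornithine carrier that links the mitochondrial and cytosolic steps of the urea cycle, had a median width of 3100 bp and a median place of 94.5, and lacked an island only in YD mouse 3. Slc25a22, a glutamate carrier, was the widest of the family (median 3900 bp, range 600 to 6400 bp, median place 94.1) and also lacked an island only in YD mouse 3. Slc25a13 or citrin, the aspartate-glutamate carrier of liver, was absent from the 3 YD mice but present in the 3 RD mice with 600, 3600 and 1200 bp. As it was absent from standard diet mouse 1 and CR mouse 1 as well, its difference between RD and YD was not called (log2 3.02 ± 1.14, limma, Benjamini-Hochberg adjusted p = 0.324). Slc25a12, the related carrier of other tissues, was marked in 14 libraries and Slc25a44, a carrier of branched-chain amino acids, in 15, with the lowest median place among the genes marked everywhere (81.8).

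Slc25a29, a carrier of basic amino acids, was narrower in the corn diets. Its width was 2200, 2800 and 1600 bp in the standard diet, 1400, 3000 and 2800 bp in CR and 3200, 1600 and 2800 bp in HF, whereas only RD mouse 2, with 3000 bp, had an island among the 6 YD and RD mice. Slc25a2, a second ornithine carrier, had its widest islands in the corn diets, with 8200, 4400 and 1600 bp in YD and 1600, 8600 and 5000 bp in RD. It measured 1200 to 4400 bp in the standard diet, 1800 to 3000 bp in CR and 3000, 4000 and 0 bp in HF. Its place was 89.1 to 99.5 in YD and 80.6 to 99.7 in RD, and 53.5, 84.8 and 24.2 in HF. For all marked genes the median place was 86.7 to 91.3 in YD, 82.6 to 86.1 in RD and 72.7 to 76.2 in HF. The lower place of HF against the other 4 diets, -29.8 points, was not called (limma, Benjamini-Hochberg adjusted p = 0.272), and the groups overlapped. In 3 libraries its island also reached the start of Taf7. These were the 3 widest islands, which reached furthest before the TSS, by 6655 bp in YD mouse 1, 6855 bp in RD mouse 2 and 5255 bp in RD mouse 3. The widest islands of the corn diets thus cannot be assigned to 1 of the 2 genes. The other corn diet islands, 4400 and 1600 bp in YD and 1600 bp in RD, lay within the range of the standard diet. Slc25a18, a glutamate carrier of other tissues, was marked in no library.

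Slc25a38, a glycine carrier required for haem synthesis, had no island in the 3 standard diet mice. It measured 0, 1600 and 1000 bp in CR, 1600, 1600 and 1000 bp in HF, 1600, 800 and 0 bp in YD and 1000, 1000 and 400 bp in RD. Every HF and RD mouse thus lay above all standard diet mice. Only 0.0276% of all protein-coding genes were, like Slc25a38, marked in the 3 RD mice and in no standard diet mouse, but the design allows no exact p under 0.1 for 3 mice against 3. The score place was 78.7, 79.3 and 74.5 in RD, a difference of 47.3 points from the standard diet that missed the threshold (limma, Benjamini-Hochberg adjusted p = 0.183), as did the width (log2 2.25 ± 0.93, limma, Benjamini-Hochberg adjusted p = 0.425).

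Of the acylcarnitine and glutathione carriers, 8 of 9 combinations were marked in the standard diet, 9 in HF, 8 in CR, 7 in RD and 6 in YD. Slc25a20, the carnitine-acylcarnitine carrier through which fatty acids enter the matrix for oxidation, was marked in all mice with 1200 to 2400 bp. Its place was 67.2, 61.3 and 56.05 in HF, 67.2 to 87.4 in the standard diet, 80.5 to 87.9 in CR, 88.6 to 92.8 in YD and 71.4 to 90.04 in RD. The difference between HF and the other 4 diets was -22.0 points and was not called (limma, Benjamini-Hochberg adjusted p = 0.171). The median place of all marked genes was also lower in HF (72.7 to 76.2) than in YD (86.7 to 91.3) and RD (82.6 to 86.1). Slc25a39, a glutathione carrier, had a median width of 3700 bp and a median place of 91.9, and was wide in the standard diet (3800, 4200 and 4200 bp), CR (3000, 4600 and 4000 bp) and HF (4200, 3600 and 5400 bp). In contrast, it measured 3200, 2200 and 1000 bp in YD and 600, 1200 and 0 bp in RD, so that all RD mice lay below all other mice except YD mouse 3. The difference between RD and the standard diet missed the threshold (log2 -2.81 ± 0.58, limma, Benjamini-Hochberg adjusted p = 0.0592). Slc25a40, a second glutathione carrier, was marked in 9 libraries, with no YD mouse among them, always with an island that also reached the start of Dbf4.

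Cofactor carriers, listed together with the pyrimidine nucleotide carriers Slc25a33 and Slc25a36, were marked in 23 of 27 combinations in the standard diet, 26 in HF, 20 in CR, 16 in RD and 13 in YD. Slc25a42, a carrier of coenzyme A, was marked in all mice with 1000 to 3800 bp. Slc25a51, the NAD carrier, was marked in 12 libraries, and CR mouse 1, YD mouse 3 and RD mouse 2 lacked it. Slc25a17, a cofactor carrier that sits in the peroxisome, measured 2200, 1800 and 2200 bp in the standard diet, 1800, 2200 and 1800 bp in CR and 2200, 1600 and 2400 bp in HF. It had no island in any YD mouse, and 0, 1000 and 1400 bp in RD, so that the 6 corn diet mice lay below the other 9. The remaining genes of this group were marked in 3 to 13 libraries. The island of Slc25a32, a carrier of folate and flavin cofactors, reached the start of Dcaf13 in all 13 libraries where it was called.

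Nucleotide and phosphate carriers were marked in 17 of 27 combinations in HF, 12 in the standard diet, 12 in CR, 9 in YD and 8 in RD. Slc25a3, the phosphate carrier of ATP synthesis, was marked in all mice with 1200 to 3600 bp and a median place of 91.8. Of the adenine nucleotide carriers, Slc25a5 was marked in 14 libraries with 1000 to 4000 bp, Slc25a4, the form of heart and muscle, in HF mice 1 and 3 only, and Slc25a31, the form of the testis, in none. Slc25a25, an ATP-Mg and phosphate carrier regulated by calcium, was marked in all mice with 1000 to 4800 bp (median 3400 bp) and a median place of 94.2. Its relative Slc25a41 was marked in none, like Slc25a54.

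Slc25a23, another carrier of ATP-Mg and phosphate, separated the corn diets from the rest. Its width was 1400, 2200 and 1200 bp in the standard diet, 1600, 1400 and 2000 bp in CR and 2800, 1800 and 3200 bp in HF, while none of the 6 YD and RD mice had an island. The islands in the standard diet were low in their lists, at places 14824 of 23107, 9173 of 14681 and 10275 of 10501 by score. The island reached the start of Crb3 in all 9 libraries in which it was called. Slc25a24, a further carrier of this kind, had islands in the 3 HF mice only, with 1400, 1000 and 2400 bp at places 12963, 15911 and 11069 of lists of 21280, 21310 and 13499 islands.

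Iron carriers were represented by Slc25a28 or mitoferrin 2, since Slc25a37, the mitoferrin of red blood cell precursors, was marked in no library. Slc25a28 measured 2600, 1000 and 2400 bp in the standard diet, 4400, 3200 and 3000 bp in CR, 3600, 3000 and 3200 bp in HF, 0, 1000 and 0 bp in YD and 3200, 1000 and 1400 bp in RD. YD was lowest, with YD mouse 2 at the level of the lowest standard diet and RD mice. The uncoupling protein-like genes were marked in 5 of 9 combinations in the standard diet, 9 in HF, 4 in CR, 2 in RD and 3 in YD. Among them, Slc25a14 had islands in the 3 HF mice only, with 2800, 400 and 1400 bp at list places 9376, 14095 and 11095. The island of Slc25a27 also covered the start of Cyp39a1 in all 8 libraries in which it was called.

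The outer membrane and unassigned carriers were marked in 9 of 24 combinations in the standard diet, 16 in HF, 14 in CR, 5 in RD and 5 in YD. Slc25a47, a carrier found chiefly in liver, was marked in 14 libraries with a median width of 3100 bp and lacked an island only in YD mouse 3. Slc25a34, an unassigned carrier, had no island in the 3 standard diet mice, 2000, 0 and 2000 bp in CR, 1400, 1800 and 3000 bp in HF, 1800, 1400 and 0 bp in YD and 1800, 0 and 0 bp in RD. Slc25a53 measured 800, 1200 and 0 bp in the standard diet, 800, 400 and 1000 bp in CR and 2200, 1200 and 1400 bp in HF, and was absent from all YD and RD mice. Slc25a46, a protein of the outer membrane, was marked in 7 libraries, each time with an island that reached the start of B930094E09Rik. Slc25a48 was marked in CR mice 2 and 3 only, and Slc25a43 in none.

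Where a gene had TSSs far apart, the island lay in nearly every case at the 5′ end. In 20 of the 47 genes the annotated TSSs fell into groups more than 3 kb apart, 58 groups in all, of which 35 were marked in no library. The group nearest the 5′ end was marked in at least 1 library in 20 of these 20 genes, and only Slc25a25, Slc25a47 and Slc25a51 had an island at more than 1 group. In Slc25a25 (chromosome 2, minus strand), the 5′ group at 32451422 to 32451445 was marked in 13 libraries with a median of 2600 bp. An inner group at 32416571 to 32424005 was marked in 14 libraries with a median of 3600 bp, while the group between them was marked in none. The islands at the inner group thus made Slc25a25 one of the widest genes of the family. In Slc25a47 (chromosome 12, plus strand), the principal group at 108851129 to 108851139 was marked in 14 libraries. The upstream group at 108836046 to 108837064 lies beside the start of Slc25a29 on the other strand, and it was marked in 10 libraries, with no YD mouse and 1 RD mouse among them. The island counted as lost for Slc25a29 is therefore shared with the upstream starts of Slc25a47. Slc25a53 (chromosome X, minus strand) was marked only at its upstream group at 137038008 to 137038302, in 8 libraries, and never at its principal TSS.

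**Figure D5:**
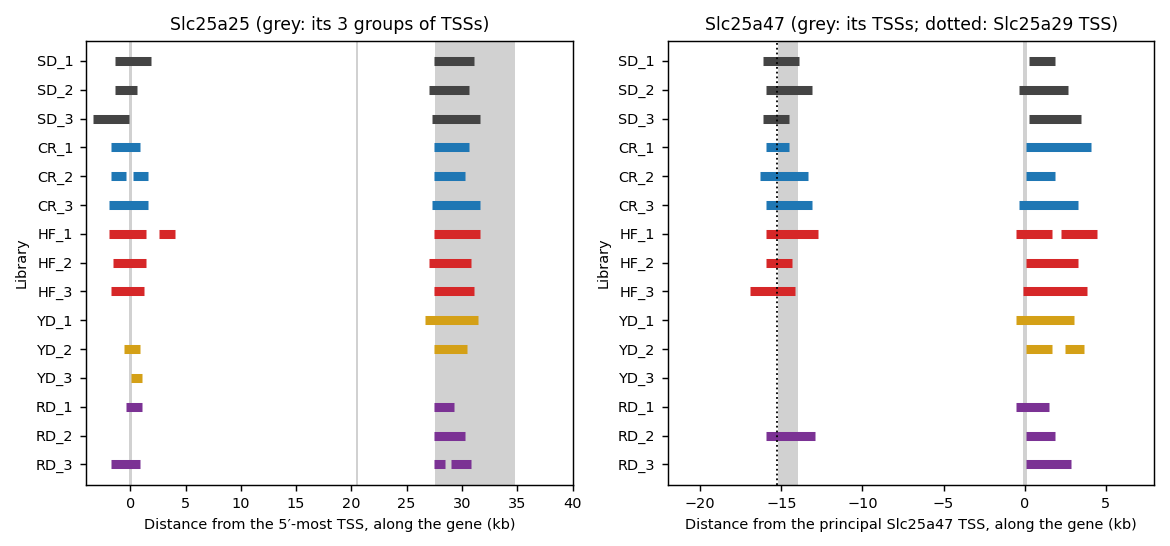
Islands (bars, coloured by diet) around Slc25a25 (left) and Slc25a47 (right) in the 15 libraries (rows), as distance along the gene in kb from the 5′-most TSS of Slc25a25 and from the principal TSS of Slc25a47. Grey bands show groups of TSSs and the dotted line the TSS of Slc25a29, whose island is present in the 9 SD, CR and HF mice, in RD mouse 2 and in no YD mouse.

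The comparison of YD and RD with the standard diet and CR set the corn lines against diets with the usual maize. Intake was restricted in CR but not in YD, RD or the standard diet. The pooled comparison therefore mixes intake with the exchange of maize and cannot separate them. The exchange alone is addressed by the comparisons of each corn diet with the standard diet, given further below. Of the 39 Slc25 genes tested, 7 (17.9%) had narrower islands in the corn diets and none wider, and 11.2% of the 11200 genes tested were called narrower and 0.00893% wider. The median difference was -0.98 on the log2(width + 200 bp) scale for the Slc25 genes and for all genes. The genes called were Slc25a23 (log2 -3.17 ± 0.42 SE), Slc25a29 (-2.93 ± 0.63), Slc25a17 (-2.52 ± 0.50), Slc25a53 (-1.94 ± 0.51), Slc25a39 (-1.86 ± 0.41), Slc25a28 (-1.74 ± 0.46) and Slc25a1 (-1.68 ± 0.35). Their adjusted p-values (limma, Benjamini-Hochberg) ran from 0.00109 for Slc25a23 to 0.0273 for Slc25a28. Two-sided exact permutation tests of the 6 mice against 6 gave p = 0.0022 for Slc25a23 and Slc25a17, the smallest that this design allows, 0.0043 for Slc25a39, 0.0152 for Slc25a29 and Slc25a53, 0.0455 for Slc25a28 and 0.0779 for Slc25a1. Adjusted over all genes, the exact test called none of the 11200 genes. Once the log2 widths were centred on genes marked in all 15 libraries, the median difference of all genes was -0.52 instead of -0.98, and 2 Slc25 genes, Slc25a23 and Slc25a29, were called narrower, with 142 genes lower and 1 higher in all against 1251 and 1 without centring. By score place, Slc25a23 (-29.6 ± 5.52 points) and Slc25a29 (-39.2 ± 8.26 points) were lower (limma, Benjamini-Hochberg adjusted p = 0.0170 and 0.0458) and none higher, where 0.518% of all genes were lower and 0.00893% higher. The place of Slc25a29 was not called when any of 12 single mice was left out, without a filter (limma, Benjamini-Hochberg adjusted p = 0.0698) or with the replicate block (0.0752). With the 7825 highest-scoring islands of every list, Slc25a23 was no longer called by width (log2 -0.53) or place (-2.28 points). The mean number of endothelial and stellate markers marked was lower in the corn diets, with 0 stellate markers in both, while that of Kupffer markers was 0 in YD and 0.667 in RD against 0.333 in the standard diet and in CR. Their part in these differences was not tested.

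Each corn diet was also compared with the standard diet. In YD, 5 Slc25 genes had narrower islands (Slc25a1, Slc25a17, Slc25a23, Slc25a28 and Slc25a29) beside 5.97% of all genes. Their log2 differences ran from -3.55 for Slc25a29 to -2.50 for Slc25a28. With the 7825 highest-scoring islands of every list none of these genes was called and Slc25a23 did not differ (log2 0.0), with centred widths only Slc25a1 was called, and Slc25a28 was lost when any of 10 single mice was left out and Slc25a29 when any of 6 was. In RD, Slc25a23 was the only one (log2 -3.13 ± 0.59, limma, Benjamini-Hochberg adjusted p = 0.0448), with 0.241% of all genes, and it was not called with a pseudocount of 600 bp (log2 -1.85), TSSs within 3 kb, centred widths, the form of the library name, the replicate block or any of 11 single mice left out. With the highest-scoring islands the difference of Slc25a23 was 0.0, and Slc25a39 was the Slc25 gene called in its place. By score place no Slc25 gene was called by limma in YD or RD against the standard diet, with 9 and 5 of 39 at an unadjusted p under 0.05, compared with 1389 and 847 of the 11200 genes.

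By presence alone, 9 Slc25 genes were marked in at least 2 standard diet mice and in no YD mouse (9.46% of all genes), namely Slc25a1, Slc25a13, Slc25a17, Slc25a21, Slc25a23, Slc25a29, Slc25a40, Slc25a46 and Slc25a53. In RD these were Slc25a21, Slc25a23, Slc25a27 and Slc25a53 (3.92% of all genes). The reverse held for Slc25a34 and Slc25a38 in YD (0.0368% of all genes) and for Slc25a38 in RD (0.221%). Without standard diet mouse 2, the 11 genes gained or lost in YD became 6. Between RD and YD, Slc25a1, Slc25a13, Slc25a17 and Slc25a40 were marked in at least 2 RD mice and no YD mouse (3.81% of all genes), and none the other way round (0.244%). Slc25a1 and Slc25a13 were so in all 3 RD mice (1.09% of all genes). Under the same strict rule against the standard diet, Slc25a1, Slc25a17, Slc25a23 and Slc25a29 were lost in YD (3.5% of all genes) and none gained (0.0046%), and Slc25a23 was lost in RD (1.05%). In HF, Slc25a14, Slc25a24, Slc25a34 and Slc25a38 were gained (1.82%) and none lost (0.00919%), and in CR none was gained (0.313%) or lost (0.0184%). As RD and YD are both compared with the same standard diet mice, these lists are not independent of each other. A gene could be lost only if marked in the standard diet, and gained only if unmarked there. All 3 standard diet mice had an island at 48.9% of the Slc25 genes and 29.1% of all genes, and none had one at 25.5% and 51.3%. The shares of lost and gained genes thus rest on unlike bases.

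For HF against the mean of the other 4 diets, 5 of the 39 Slc25 genes (12.8%) had wider islands and none narrower, and 9.99% of the genes tested were called wider and 0.00893% narrower. The genes were Slc25a24 (log2 3.10 ± 0.33), Slc25a14 (2.83 ± 0.40), Slc25a23 (2.19 ± 0.47), Slc25a53 (2.16 ± 0.57) and Slc25a1 (1.49 ± 0.40), with adjusted p-values (limma, Benjamini-Hochberg) of 2.23e-05 to 0.0306. Slc25a23 and Slc25a53 had no island in any YD or RD mouse, and Slc25a1 had none in YD. These widths of 0 bp lower the mean of the other 4 diets. Slc25a23, Slc25a53 and Slc25a1 were not called in HF against the standard diet alone. The median difference was 1.20 for the Slc25 genes and 1.19 for all genes, and 0.72 for all genes once widths were centred, when Slc25a14 and Slc25a24 were the Slc25 genes called. Both passed the filter of 3 libraries only through their HF islands, so a difference between HF and the rest was built into their being tested. Exact permutation tests gave p = 0.0022 for Slc25a14 and Slc25a24, the smallest possible, 0.0044 for Slc25a53, 0.0505 for Slc25a23 and 0.0945 for Slc25a1, and none of the 11200 genes after adjustment. Without 1 HF mouse, or with a filter of at least 8 libraries, they could not be tested. No Slc25 gene was called without HF mouse 1 or without HF mouse 3, 1 was called without HF mouse 2, and none among genes marked in at least 8 libraries. By score place, Slc25a14 (22.2 ± 4.24 points) and Slc25a24 (19.3 ± 4.19 points) were higher (limma, Benjamini-Hochberg adjusted p = 0.0245 and 0.0394), as were 0.946% of all genes, and none lower, against 0.0714% of all genes. HF was also the diet with the most hepatocyte, endothelial, Kupffer and stellate markers marked, and with the largest share of all protein-coding genes marked (51.2%). Cholangiocyte markers were marked most often in CR. The part of these markers in the differences was not tested.

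Against the standard diet alone, Slc25a14 and Slc25a24 were the Slc25 genes called wider in HF (2.84% of all genes), with log2 differences of 2.83 ± 0.51 and 3.10 ± 0.42. Both were marked in HF mice alone and passed the filter on that basis, so that they had to differ in this direction. By presence, Slc25a4, Slc25a14, Slc25a24, Slc25a34 and Slc25a38 were marked in at least 2 HF mice and no standard diet mouse (4.69% of all genes), and none was lost (0.0735%). By place no Slc25 gene was called in HF against the standard diet by limma, with 3 of 39 at an unadjusted p under 0.05 compared with 685 of the 11200 genes, where 0.0446% of all genes were called higher and 0.0179% lower. In CR against the standard diet, no Slc25 gene was called by limma by width or place, with 1 of 39 at an unadjusted p under 0.05 by each measure, compared with 597 and 672 of the 11200 genes. Of all genes, 0.125% were called wider and 0.00893% narrower, and 0.125% higher and 0.0536% lower by place. By presence, Slc25a34, Slc25a38 and Slc25a48 were marked in 2 CR mice and no standard diet mouse (1.79% of all genes), and none was lost (0.336%). The CR mice were the most uneven of the diets in the number of Slc25 genes marked, with 23 in CR mouse 1, and without it the mean of CR was 35.5.

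Genes of mitochondrial transport with symbols other than Slc25a and a number were counted in the same way. This list was set apart by symbol alone and is not a comparison outside the carrier family. Of 24 such genes, a mean of 16.3 was marked in the standard diet, 20.7 in HF, 17 in CR, 12.3 in RD and 8.67 in YD. Mpc1 and Mpc2, the subunits of the pyruvate carrier, Vdac1 and Vdac2, channels of the outer membrane, Sfxn5 and Cpt2 were marked in all 15 libraries, and the uncoupling proteins Ucp1 and Ucp3 in none. Of the 21 tested, those wider in HF against the other diets included Mcu, the pore of the calcium uniporter (log2 2.61), Mtch1 (2.48) and Abcb6 (2.48), beside 9.99% of all genes. None of the 21 was called in HF against the standard diet alone. In the corn diets against the standard diet and CR, 2 of the 21 tested were narrower, Sfxn2 (log2 -3.40) and Abcb10 (-2.43), beside 11.2% of all genes. Both were also narrower in YD against the standard diet alone, beside 5.97% of all genes. None was called by score place by limma in any of the 7 comparisons.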

How the data were processed

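The 47 genes, the lists and the tests were chosen with earlier results of these data known. Reads of 50 bp were aligned to mm10 by the authors with bwa and filtered with samtools (MAPQ of at least 1, no duplicates, chromosomes 1 to 19 and X), and islands were called per library with SICER2 (window 200 bp, gap 400 bp, fragment 200 bp, FDR under 0.05). Versions are not given in the sources used here. The deposited lists give each island's position and score, which adds up the negative natural log of the Poisson probability of each enriched window and is not scaled between libraries. Read counts per island were not used here. Library depth was derived from score steps of islands of 1 window, assuming a genome fraction of 0.74, and lay within 0.000704 of a whole number (as a fraction of 1 read) in all libraries. The precision is that between mice, as no counting interval per island can be given.

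Genes came from GENCODE M21. Widths, as log2(width + 200 bp), and score places of genes with an island in at least 3 of 15 libraries were fitted with limma 3.58.1 (R 4.3.3, eBayes with a variance trend, diet as the only factor, all 15 libraries in 1 fit), with Benjamini-Hochberg adjustment over 11200 genes and a threshold of 0.05. The sample labels give the diet and a replicate number, and p-values measure the spread between these mice. Exact permutation tests were two-sided (Python 3.11.15, scipy 1.17.1). Genes were named when called by limma, when among the 3 with the smallest p in a pooled comparison, when highest or lowest in place or width by fixed ranks, when never marked, when gained or lost in all 3 mice, or for their role in liver. The calculations were tested on simulated data. A gene of the other mitochondrial transport list is not reported here.

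The alternatives were TSSs within 3 kb or inside the island, the 7825 highest-scoring islands of every list, islands of at least 600 bp, presence in all 3 mice, no filter or at least 8 libraries, a pseudocount of 600 bp, summed widths, centred widths, percentiles among all islands, no variance trend, the replicate block, the form of the library name (PATChIP in 5 libraries, ChIP in 10), the exact test and each mouse left out. The PATChIP form was that of CR mice 1 and 2, HF mice 2 and 3 and RD mouse 1, so it was not balanced over the diets. The omission of the 2 longest lists was chosen after seeing the data.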

Additional observations from a re-analysis of the deposited data

How the results depend on the processing

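The mean number of Slc25 genes marked kept the order HF above SD above RD under all alternatives. With the TSS inside the island the means were 26 in SD, 35 in HF and 17.7 in RD, and with the 7825 highest-scoring islands of every list 23 in SD, 26.3 in HF and 15.3 in RD, the last then below YD (17). In libraries with the ChIP form of name alone, HF gave 40 from 1 mouse. Leaving out single mice gave 28.5 to 31.5 for SD, 29 to 35.5 for CR, 37.5 to 39 for HF, 16.5 to 22.5 for YD and 23 to 24.5 for RD.

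Genes gained or lost against SD in all 3 mice numbered 2 in RD, 4 in YD and 0 in CR, and 2 in RD against YD, compared with 5, 11, 3 and 4 in at least 2 of 3 mice. With the highest-scoring islands they numbered 7 in YD and 3 in HF (5 without this choice). Leaving out single mice gave 2 to 6 for RD, 6 to 13 for YD, 1 to 4 for CR, 4 to 6 for HF and 2 to 6 for RD against YD. The lowest values came without SD mouse 2 for RD (2) and YD (6), and without RD mouse 2 for RD against YD (2).

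For width, HF against the other diets gave 5 Slc25 genes, and 0 with at least 8 libraries, 0 by the exact test, 2 with centred widths, 1 with the highest-scoring islands and 8 without the 2 longest lists. YD and RD against SD and CR gave 7, and 0 by the exact test, 2 with centred widths and 4 with the highest-scoring islands. YD against SD gave 5, and 1 with centred widths and 0 with the highest-scoring islands. RD against SD gave 1, and 0 with TSSs within 3 kb, with centred widths, with the form of name as a term, with a pseudocount of 600 bp and with the replicate block, but 2 with at least 8 libraries and 3 without the 2 longest lists. HF against SD gave 2, and 0 with at least 8 libraries or the highest-scoring islands, and RD against YD gave 1, and 2 with the highest-scoring islands. Leaving out single mice gave 0 to 6 for HF against the other diets, 5 to 11 for the corn diets, 2 to 6 for YD, 0 to 3 for RD, 0 for CR, 0 to 2 for HF against SD and 1 to 2 for RD against YD. The corn comparison gave 11 without YD mouse 1, and YD against SD gave 2 without SD mouse 1. Slc25a23 in RD was lost without CR mouse 2 or 3, any HF mouse, RD mouse 1 or 3, SD mouse 1 or 2, or YD mouse 1 or 3.

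For score place, HF against the other diets gave 2, and 1 with TSSs within 3 kb or without the 2 longest lists, 0 with at least 8 libraries, by the exact test, with the form of name, with the replicate block and with the highest-scoring islands, but 4 without a variance trend and 4 as percentiles among all islands. The corn diets gave 2, and 0 by the exact test, 1 without a filter, 1 with the replicate block, 4 without a variance trend and 7 as percentiles among all islands. From 0, YD against SD rose to 3 without a variance trend and 1 as percentiles, RD against SD to 1 without a variance trend or with the highest-scoring islands, HF against SD to 2 without a filter or without a variance trend, and RD against YD to 1 with at least 8 libraries, without a variance trend or with the highest-scoring islands. Leaving out single mice gave 0 to 2 for HF against the other diets, 1 to 3 for the corn diets, 0 for YD and CR, 0 to 1 for RD, 0 to 2 for HF against SD and 0 to 2 for RD against YD.

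Counts over all genes moved as well. By width, 1120 genes in HF against the other diets became 0 with at least 8 libraries or by the exact test, 282 with centred widths and 79 with the highest-scoring islands, and the 1252 of the corn diets became 0, 143 and 278 under the last 3. The 669 of YD became 124, 417 with the replicate block and 4 with the highest-scoring islands, and the 318 of HF against SD became 0 with at least 8 libraries, 180 and 19. The 113 of RD against YD became 53 with a pseudocount of 600 bp and 12 with the highest-scoring islands. By place, the 114 of HF ranged from 0 by the exact test to 620 as percentiles, and the 59 of the corn diets from 0 to 1476. The cause of these shifts was not tested.

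The replicate numbers gave no sign of pairing. Deviations of same-numbered mice correlated between -0.104 and 0.0897 (median -0.005, 30 pairs), those of other mice between -0.096 and 0.114. The labels do not state what the numbers stand for, so these values cannot exclude a pairing. With the replicate block, 4 Slc25 genes were called by width in HF against the other diets, 7 in the corn diets, 4 in YD, 0 in RD, 2 in HF against SD and 1 in RD against YD, and by place 0 and 1 in the pooled comparisons.

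The lists hold called islands only. A gene without an island is therefore not shown to lack H3K4me3, and the depth at which an island is lost was not tested. Scores are not comparable between libraries, and islands that reach the starts of neighbouring genes cannot be assigned to 1 of them.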
